A study of Mus musculus with 16 samples.

Results

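Genes of fibroblasts and of the extracellular matrix were examined in B16-OVA tumors, a mouse melanoma line that carries ovalbumin, after treatment with a MEK inhibitor, an agonist antibody to CD40, or both. The 42 genes were chosen by name and grouped by role, and 40 of them had a probe set whose only gene symbol was their own, among 18193 such genes on the array. The other 2, Fbn1 and Loxl2, were not analysed here. Tumor cells were injected under the skin of the flank of male C57BL/6-Ly5.1 mice aged 6 to 12 weeks, in PBS mixed with Matrigel. MEKi+CD40 mice received GDC-0623 daily at 30 mg/kg together with anti-CD40 (mIgG1), CD40 mice the MCT vehicle with anti-CD40, MEKi mice GDC-0623 with control IgG, and control mice the vehicle with control IgG. The antibodies were given on treatment days 3, 5 and 7 and once more 1 day before the analysis. Each of the 4 groups held 4 mice with 1 array per tumor, all taken at day 18 after inoculation. Labels call the source a whole tumor, whereas the series text speaks of tumor pieces. Each level below is the deposited log2 signal of the brightest probe set of a gene, so that 1 unit is a doubling, and a difference is the mean of 1 group minus that of another on the same scale. Levels of different genes are not set against each other, since probe sets differ in brightness.

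Fibroblasts lay down most of the connective tissue of a tumor. They secrete fibrillar collagens as procollagens, which are trimmed, assembled into fibrils and crosslinked outside the cell, while small leucine-rich proteoglycans, fibronectin and matricellular proteins decorate and connect the fibrils. Matrix metalloproteinases cleave these proteins, tissue inhibitors restrain the proteases, and receptors for platelet-derived growth factors mark fibroblasts and pericytes. In bulk tumor RNA, fewer cells of a type and less RNA per cell cannot be told apart.

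RefSeq promoter windows of the GRCm38.p6 build were matched for 24 of the 40 genes. The 250 bases before the start site are shown for 4 genes that carry the results or a searched motif: Mmp3 and Col6a1 were the 2 genes with an AP-1 match (TGANTCA), and Col1a2 and Timp1 are a fibrillar collagen and a protease inhibitor with a CCAAT match. Capitals mark the match, read on either strand (a CCAAT on the opposite strand appears as ATTGG), with positions counted back from the base before the start site as -1. The Mmp3 window lies at chr9:7445572-7445821 on the plus strand with its match at -46 to -40. The Col6a1 window lies at chr10:76726045-76726294 on the minus strand with its match at -90 to -84. The Col1a2 window lies at chr6:4505368-4505617 on the plus strand with its match at -109 to -105, and the Timp1 window at chrX:20869916-20870165 on the plus strand with its match at -190 to -186.
Mmp3: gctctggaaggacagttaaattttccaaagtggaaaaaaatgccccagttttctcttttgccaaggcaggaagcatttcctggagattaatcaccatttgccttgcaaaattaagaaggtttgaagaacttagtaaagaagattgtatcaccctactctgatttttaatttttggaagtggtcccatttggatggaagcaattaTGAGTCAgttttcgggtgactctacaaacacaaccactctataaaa
Col6a1: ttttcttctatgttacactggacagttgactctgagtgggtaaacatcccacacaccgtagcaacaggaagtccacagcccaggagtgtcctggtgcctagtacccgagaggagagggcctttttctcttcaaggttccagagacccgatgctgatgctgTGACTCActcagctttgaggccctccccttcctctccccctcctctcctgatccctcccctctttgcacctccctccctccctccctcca
Col1a2: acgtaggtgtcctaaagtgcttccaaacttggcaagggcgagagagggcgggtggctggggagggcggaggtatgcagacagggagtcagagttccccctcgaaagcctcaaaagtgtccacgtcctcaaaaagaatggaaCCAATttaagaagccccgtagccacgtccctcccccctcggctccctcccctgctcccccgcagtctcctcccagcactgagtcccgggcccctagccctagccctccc
Timp1: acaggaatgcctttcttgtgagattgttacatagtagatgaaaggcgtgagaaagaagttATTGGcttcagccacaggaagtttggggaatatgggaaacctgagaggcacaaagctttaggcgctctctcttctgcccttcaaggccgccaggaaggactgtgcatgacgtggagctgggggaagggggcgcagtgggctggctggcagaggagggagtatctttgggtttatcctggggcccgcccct
AP-1 letters were found in 2 of the 28 windows of these 24 genes, beside 6.75% of 32851 promoter windows of the same length. CCAAT was found in 7 of the 28, beside 33.85% of all windows. GGGCGG, the core of GC boxes, was found in 15 of the 28, from 13 of the 24 genes, beside 32.74% of all windows. No CArG box was found in these windows, and 1.47% of all windows held 1. A match is a description of letters only. A RefSeq start site of Col4a1, at base 11312826, lay 21 bases from that of Col4a2 on the opposite strand of chromosome 8. The RefSeq span of the Col4a1 gene ends further out, at base 11312889.

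A total of 4 of the 16 tumors stood apart for these genes, and they came from all 3 treated groups. Set against the control mean, the 40 genes had a median deviation of 3.45 in MEKi+CD40 tumor 1, 1.18 in MEKi+CD40 tumor 3, 2.06 in CD40 tumor 3 and 1.91 in MEKi tumor 3. The same median lay between -0.49 and 0.31 in the other treated tumors and between -0.38 and 0.21 in single control tumors. In 25 of the 40 genes these 4 tumors were the 4 highest of the 16. MEKi+CD40 tumor 1 was the highest of all in 36 genes (90% of the 40, beside 16.1% of all genes). The tumors were recognised from the levels themselves, so their height is a description and no test was made of it. Number 3 was carried by 3 of the 4, and control tumor 3 did not stand apart. The spread was wide: the median range over 16 tumors was 4.37 for the 40 genes and 0.67 for all genes, and the range passed 3 in 32 of them.

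**Figure D1:**
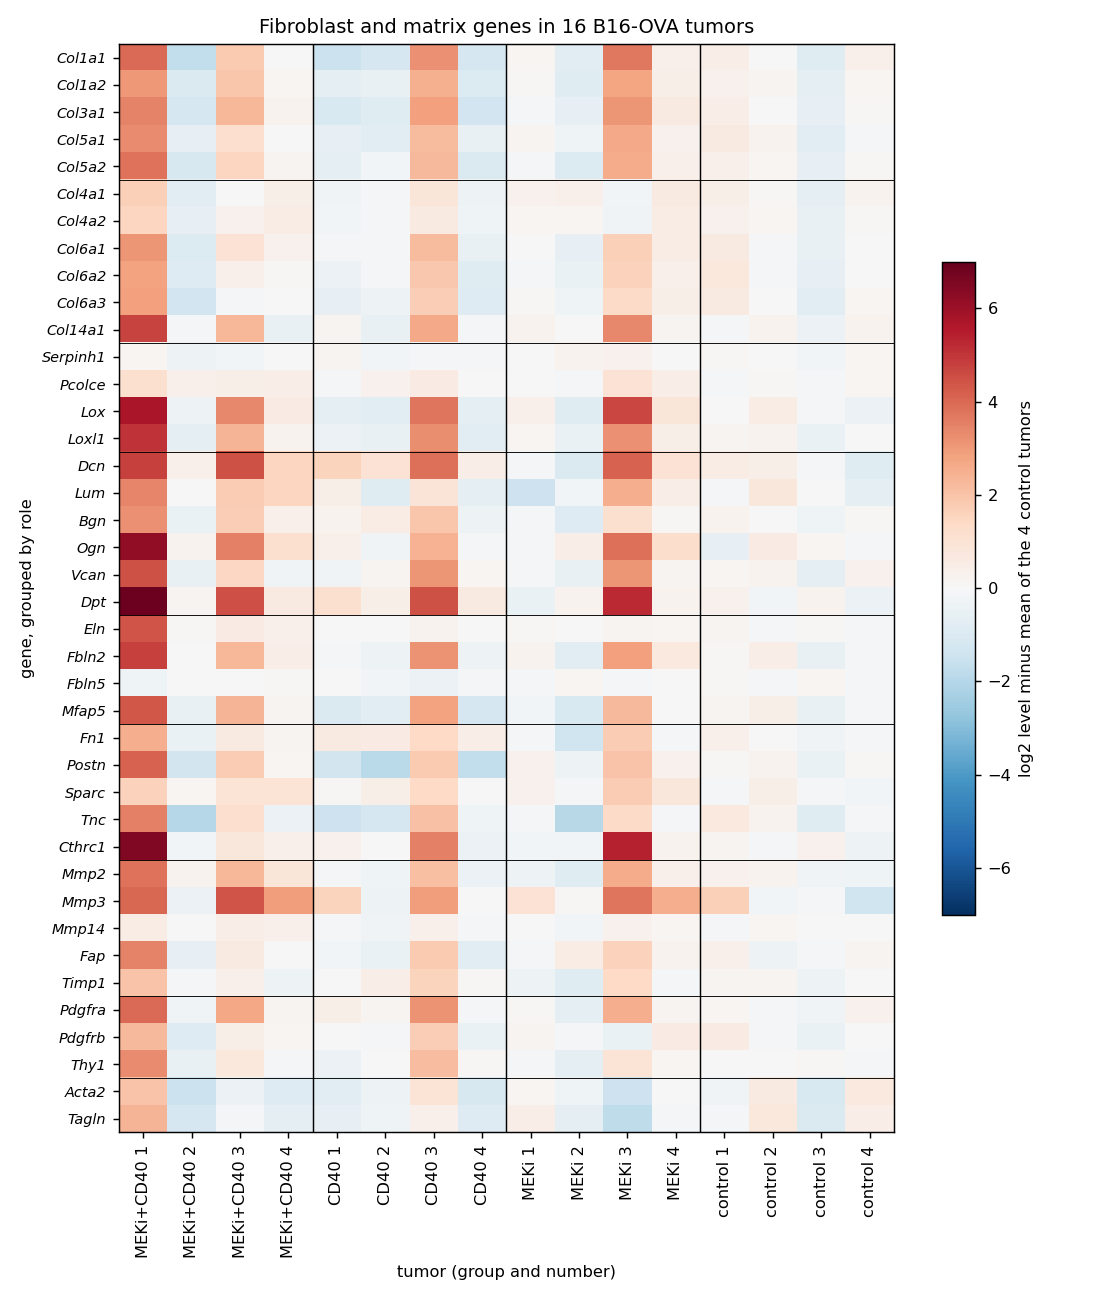
Level of each of the 40 genes (rows, grouped by role) in each of the 16 tumors (columns), as log2 level minus the mean of the 4 control tumors, with red above and blue below. MEKi+CD40 tumors 1 and 3, CD40 tumor 3 and MEKi tumor 3 form red columns, while Acta2 and Tagln are blue in MEKi tumor 3.

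Markers of other cell types differed between these 4 tumors. The mean level of 15 skeletal muscle genes was 11.87 in MEKi+CD40 tumor 1, 9.11 in MEKi+CD40 tumor 3 and 7.83 in CD40 tumor 3, with 15, 14 and 13 of the 15 genes above all of the 12 remaining tumors. MEKi tumor 3 had a mean of 4.87 with 0 of the 15 above those tumors, whose means ran between 4.93 and 5.82. The highest of these means, 5.82, belonged to MEKi tumor 2, which also had muscle transcripts, with Myh1 at 7.38 and Acta1 at 7.74, while the median deviation of its matrix genes was -0.41. MEKi tumor 3 thus had high matrix transcripts with skeletal muscle transcripts no higher than in the other tumors. It also had the lowest mean of the 9 endothelial markers (5.73, with 6 of the 9 below all of the 12 remaining tumors, which ran between 6.49 and 7.20), and 5 of 9 pericyte and smooth muscle markers lay below those tumors. The endothelial mean was 8.24 in MEKi+CD40 tumor 1, 7.11 in MEKi+CD40 tumor 3 and 7.69 in CD40 tumor 3. Macrophage markers were above the 12 remaining tumors in 8 of 10 cases in MEKi+CD40 tumor 1, 2 of 10 in MEKi+CD40 tumor 3, 10 of 10 in CD40 tumor 3 and 1 of 10 in MEKi tumor 3. The gap between 3′ and 5′ probe sets, a sign of RNA length, was 0.38 for Gapdh and 0.91 for Actb in MEKi+CD40 tumor 1, where no other tumor passed 0.08 and 0.44. Melanocyte markers averaged between 13.45 and 13.76 in all 16 tumors, as the labelled melanoma has them, and keratinocyte markers between 4.50 and 5.13, near the background level of 4.94. In that list, Dsp, desmoplakin, was at 8.24 in MEKi+CD40 tumor 3 and 7.35 in MEKi tumor 3, with no other tumor above 6.83. Adipocyte markers were above the 12 remaining tumors in 4 of 6 cases in both MEKi+CD40 tumors 1 and 3, 2 of 6 in CD40 tumor 3 and 0 of 6 in MEKi tumor 3, and Adipoq, adiponectin, was at 6.69 and 5.22 in those MEKi+CD40 tumors and at 3.91 or less elsewhere. All 9 pericyte and smooth muscle markers were above the 12 in MEKi+CD40 tumor 1, 1 of 9 in MEKi+CD40 tumor 3 and 4 of 9 in CD40 tumor 3. The adipocyte and pericyte counts include genes below the background level, such as Cidec at 3.96 and Cnn1 at 4.24 in MEKi+CD40 tumor 1. The part of muscle, fat, pericyte, vessel, epidermal and myeloid transcripts in the matrix values was not tested.

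**Figure D2:**
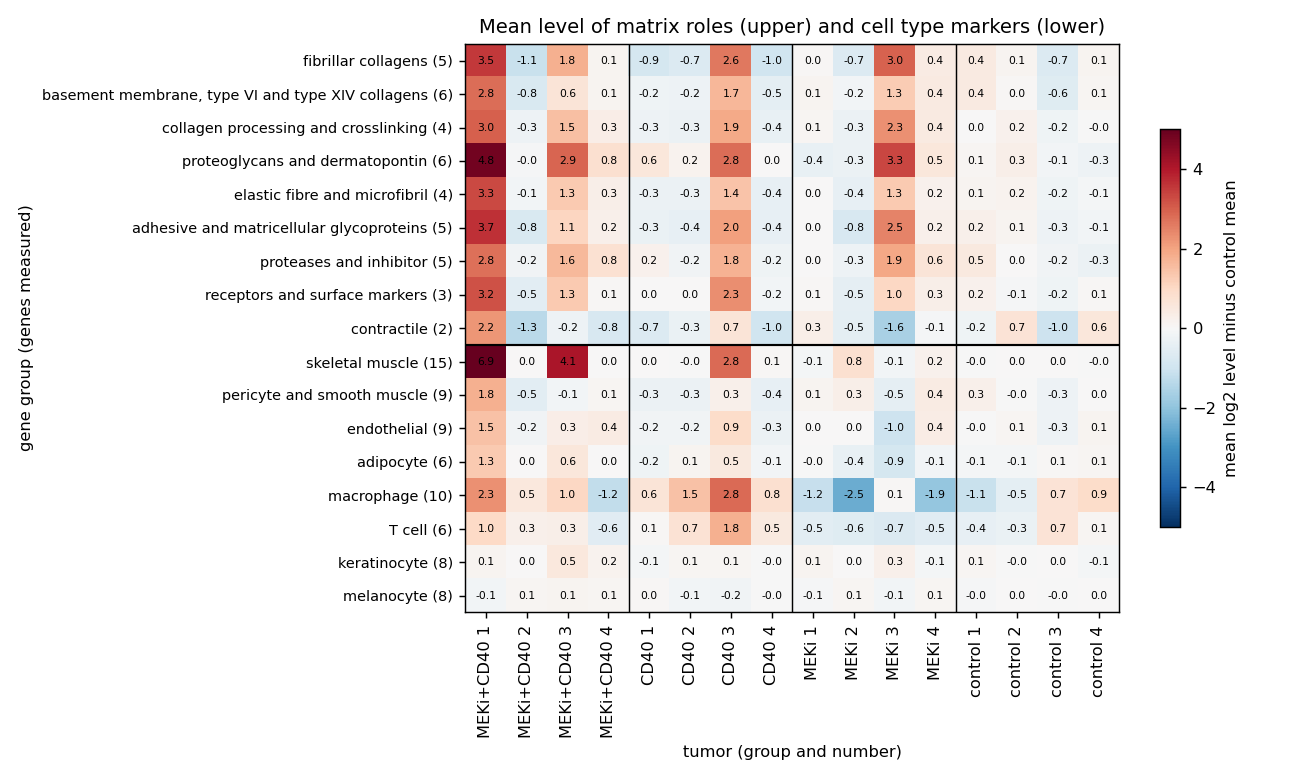
Mean log2 level minus the control mean, by tumor (columns), of 9 roles of matrix genes (upper rows) and of 8 lists of cell type markers (lower rows), with the number of genes measured in brackets. Skeletal muscle rows reach 6.86, 4.10 and 2.82 in MEKi+CD40 tumors 1 and 3 and CD40 tumor 3 and -0.14 in MEKi tumor 3, whereas the fibrillar collagens reach 3.52, 1.76, 2.62 and 2.96 in those tumors.

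The 5 fibrillar collagen genes, which encode the chains of types I, III and V collagen, varied as 1 block across the tumors. In all 5 the highest tumor was MEKi+CD40 1 and the next MEKi 3. Values are given for tumors 1 to 4 of each group in that order. Col1a1, the alpha 1 chain of type I collagen, was at 12.50, 6.76, 10.33 and 8.54 in MEKi+CD40 tumors, 6.99, 7.31, 11.73 and 7.31 in CD40 tumors, 8.62, 7.77, 12.20 and 8.89 in MEKi tumors and 8.96, 8.53, 7.67 and 8.87 in control tumors. Col3a1, the chain of type III collagen, was at 14.07, 9.43, 12.97 and 10.89 in MEKi+CD40 tumors, 9.56, 9.76, 13.47 and 9.29 in CD40 tumors, 10.56, 10.05, 13.69 and 11.23 in MEKi tumors and 11.07, 10.64, 10.05 and 10.72 in control tumors. In both genes the tumor groups overlapped, CD40 tumors 1, 2 and 4 were below the lowest control tumor, and MEKi+CD40 tumor 2 lay below every control tumor as well. Col1a2, Col5a1 and Col5a2 ranged over 16 tumors between 10.21 and 14.27, between 6.64 and 10.74, and between 8.05 and 12.96.

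Basement membrane and other collagens followed the fibrillar ones only in part. Col4a1, a chain of the type IV collagen of basement membranes, was at 11.89, 9.44, 10.19 and 10.62 in MEKi+CD40 tumors, 9.96, 10.05, 11.04 and 9.86 in CD40 tumors, 10.52, 10.56, 10.03 and 10.85 in MEKi tumors and 10.59, 10.26, 9.52 and 10.44 in control tumors. Here MEKi tumor 3, at 10.03, lay below the control mean of 10.20, and Col4a2, its partner chain, behaved likewise with 8.92 in that tumor and a control mean of 9.17. Col6a1, a chain of the beaded filament collagen VI, was at 11.33, 7.26, 9.27 and 8.52 in MEKi+CD40 tumors, 8.16, 8.08, 10.45 and 7.74 in CD40 tumors, 8.28, 7.69, 9.89 and 8.77 in MEKi tumors and 8.85, 8.17, 7.70 and 8.23 in control tumors. Its highest tumors were MEKi+CD40 1 and CD40 3, and Col6a2 and Col6a3 had the same 2 on top. Col14a1, a collagen that binds to the surface of fibrils, was at 10.78, 5.89, 8.34 and 5.53 in MEKi+CD40 tumors, 6.21, 5.54, 8.70 and 5.94 in CD40 tumors, 6.27, 6.00, 9.41 and 6.25 in MEKi tumors and 5.95, 6.29, 5.64 and 6.29 in control tumors. The 4 tumors that stood apart were at 8.34 or more for Col14a1 and the 12 others at 6.29 or less.

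Among the genes of collagen processing, the crosslinking enzymes varied widely and the chaperone hardly at all. Lox, a lysyl oxidase that crosslinks collagen and elastin, was at 12.58, 6.51, 10.26 and 7.44 in MEKi+CD40 tumors, 6.19, 6.07, 10.64 and 6.20 in CD40 tumors, 7.22, 6.01, 11.55 and 7.73 in MEKi tumors and 6.87, 7.40, 6.79 and 6.47 in control tumors. Its levels spanned 6.01 to 12.58, and Loxl1, a related oxidase, spanned 5.09 to 10.86. Pcolce, an enhancer of the protease that removes the C-terminal propeptide of procollagen, was at 12.94, 12.17, 12.25 and 12.29 in MEKi+CD40 tumors, 11.77, 12.12, 12.43 and 11.84 in CD40 tumors, 11.84, 11.70, 12.82 and 12.32 in MEKi tumors and 11.70, 11.90, 11.77 and 11.97 in control tumors. The lowest MEKi+CD40 tumor (12.17) was above the highest control tumor (11.97), without overlap. Serpinh1, the collagen chaperone of the endoplasmic reticulum, stayed between 11.98 and 12.65, a range of 0.67, equal to the median range of all genes.

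Proteoglycans and dermatopontin were the role with the greatest height in MEKi+CD40 tumor 1, where their mean lay 4.82 above the control mean. Dcn, decorin, a small proteoglycan that binds collagen fibrils, was at 12.14, 7.75, 11.81 and 8.87 in MEKi+CD40 tumors, 8.93, 8.37, 11.22 and 7.86 in CD40 tumors, 7.29, 6.38, 11.52 and 8.40 in MEKi tumors and 7.92, 7.79, 7.26 and 6.53 in control tumors. Only MEKi+CD40 tumor 2 and CD40 tumor 4 among the tumors given the antibody were below the highest control tumor, at 7.92. Lum, lumican, another fibril-binding proteoglycan, was at 10.88, 7.40, 9.24 and 8.95 in MEKi+CD40 tumors, 7.85, 6.57, 8.34 and 6.83 in CD40 tumors, 5.97, 7.25, 9.98 and 7.89 in MEKi tumors and 7.28, 8.24, 7.41 and 6.82 in control tumors. MEKi+CD40 tumor 4, which did not stand apart for most of these genes, had the fourth highest level of Lum, at 8.95, and CD40 tumor 3 was at only 8.34. Bgn (biglycan) ranged between 8.93 and 13.05, and Vcan (versican, a large proteoglycan) between 4.98 and 10.15. Ogn (osteoglycin) was below the background level in 10 tumors and Dpt (dermatopontin, a matrix protein that binds decorin and is no proteoglycan) in 9, so that their differences rest on a few tumors.

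Of the elastic fibre genes, Eln was high in 1 tumor only, by the probe set shown. Eln, elastin, was at 10.40, 6.07, 6.60 and 6.39 in MEKi+CD40 tumors, 5.97, 6.03, 6.27 and 6.00 in CD40 tumors, 6.09, 6.05, 6.19 and 6.14 in MEKi tumors and 6.19, 5.88, 6.07 and 5.89 in control tumors. All tumors but MEKi+CD40 1 lay between 5.88 and 6.60, MEKi+CD40 tumor 3, CD40 tumor 3 and MEKi tumor 3 among them. A second Eln probe set, with a mean of 5.3, differed by only 0.195 in MEKi+CD40 tumors against control. The probe set shown differed by 1.357 there, so the height rests on that probe set. Fbln2 and Mfap5, which encode a fibulin and a glycoprotein of microfibrils, ranged between 5.82 and 11.35 and between 5.52 and 11.05. Fbln5, a fibulin needed for elastic fibres, had the narrowest range of the 40 genes, between 12.38 in CD40 tumor 3 and 12.94 in MEKi tumor 2 and control tumor 3.

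Among the adhesive and matricellular genes, fibronectin and periostin lay differently in CD40 tumors. Fn1, fibronectin, which links cells through integrins to the matrix, was at 12.91, 9.85, 10.99 and 10.54 in MEKi+CD40 tumors, 10.98, 10.94, 11.73 and 10.78 in CD40 tumors, 10.23, 8.96, 12.13 and 10.26 in MEKi tumors and 10.67, 10.36, 10.09 and 10.24 in control tumors. All 4 CD40 tumors, the lowest at 10.78, were above the highest control tumor at 10.67. A second Fn1 probe set, with a mean of 6.32, also differed upward in CD40 tumors against control, by 0.90. In MEKi+CD40 tumors against control it differed by -0.51, where the probe set shown differed by 0.73. Postn, periostin, a matricellular protein secreted by fibroblasts, was at 13.24, 7.84, 10.88 and 9.27 in MEKi+CD40 tumors, 7.84, 7.21, 10.93 and 7.38 in CD40 tumors, 9.41, 8.76, 11.14 and 9.40 in MEKi tumors and 9.20, 9.39, 8.66 and 9.22 in control tumors. CD40 tumors 1, 2 and 4 lay below the lowest control tumor (8.66) for Postn, and CD40 tumor 3 was above the highest (9.39), so that the group held both the lowest level of all 16 tumors and 1 of the 4 highest. Sparc, which binds collagen during its assembly, was at 13.72, 12.25, 13.05 and 13.05 in MEKi+CD40 tumors, 12.21, 12.55, 13.51 and 12.17 in CD40 tumors, 12.41, 12.06, 13.91 and 12.92 in MEKi tumors and 12.06, 12.51, 12.00 and 11.91 in control tumors. MEKi tumor 3 was the highest for Sparc, and MEKi+CD40 tumors 3 and 4 had equal levels. Tnc (tenascin C) ranged between 5.82 and 11.39. Cthrc1, a secreted protein of activated fibroblasts, was below the background level in 12 tumors and reached 10.63 in MEKi+CD40 tumor 1, 9.53 in MEKi tumor 3 and 7.68 in CD40 tumor 3.

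Proteases and their inhibitor showed a gene that was high beyond the 4 tumors. Mmp3, stromelysin 1, a protease that cleaves many matrix proteins, was at 10.15, 5.70, 10.54 and 9.05 in MEKi+CD40 tumors, 7.70, 5.76, 9.07 and 6.09 in CD40 tumors, 7.11, 6.22, 9.89 and 8.69 in MEKi tumors and 7.81, 5.95, 6.02 and 4.72 in control tumors. MEKi+CD40 tumor 4 (9.05) and MEKi tumor 4 (8.69) were above all control tumors, and the control tumors themselves spanned 4.72 to 7.81. Mmp14, a membrane-bound metalloproteinase that activates Mmp2, was at 11.30, 10.71, 11.23 and 11.11 in MEKi+CD40 tumors, 10.64, 10.49, 11.11 and 10.70 in CD40 tumors, 10.73, 10.56, 11.05 and 10.88 in MEKi tumors and 10.65, 10.91, 10.75 and 10.71 in control tumors. Its range was 0.81. Timp1, a tissue inhibitor of metalloproteinases, was at 11.76, 9.68, 10.12 and 9.40 in MEKi+CD40 tumors, 9.75, 10.20, 11.32 and 9.83 in CD40 tumors, 9.39, 8.91, 11.16 and 9.67 in MEKi tumors and 9.96, 9.93, 9.40 and 9.76 in control tumors. Fap, a surface protease of activated fibroblasts, was at 9.15, 5.08, 6.29 and 5.65 in MEKi+CD40 tumors, 5.46, 5.23, 7.48 and 4.93 in CD40 tumors, 5.53, 6.19, 7.26 and 5.94 in MEKi tumors and 6.02, 5.32, 5.51 and 5.84 in control tumors. In Timp1 and Fap the highest tumors were MEKi+CD40 1 and CD40 3. Mmp2, gelatinase A, ranged between 6.66 and 11.32.

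Among receptors and surface markers, Pdgfra was high in MEKi tumor 3 and Pdgfrb was not. Pdgfra, the platelet-derived growth factor receptor of fibroblasts, was at 10.00, 5.78, 8.75 and 6.20 in MEKi+CD40 tumors, 6.42, 6.19, 9.17 and 5.94 in CD40 tumors, 6.12, 5.35, 8.59 and 6.20 in MEKi tumors and 6.14, 5.90, 5.76 and 6.30 in control tumors. Pdgfrb, the receptor that pericytes also carry, was at 10.62, 7.45, 8.76 and 8.46 in MEKi+CD40 tumors, 8.37, 8.20, 10.03 and 7.88 in CD40 tumors, 8.52, 8.22, 7.88 and 8.92 in MEKi tumors and 8.89, 8.20, 7.84 and 8.38 in control tumors. MEKi tumor 3 was among the 4 highest for Pdgfra, whereas for Pdgfrb it lay below the control mean of 8.33. Thy1, a surface glycoprotein of fibroblasts and T cells, was at 10.44, 6.63, 7.85 and 7.02 in MEKi+CD40 tumors, 6.74, 7.16, 9.29 and 7.20 in CD40 tumors, 7.01, 6.52, 8.11 and 7.28 in MEKi tumors and 7.08, 7.18, 7.23 and 7.02 in control tumors. T cell markers were highest in CD40 tumor 3, with 6 of 6 above the 12 remaining tumors, followed by MEKi+CD40 tumor 1 with 5 of 6. MEKi+CD40 tumor 3 and MEKi tumor 3 had 0 of 6 above those tumors.

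The contractile genes did not follow the other roles in MEKi tumor 3. Acta2, smooth muscle actin, was at 11.89, 8.43, 9.50 and 8.98 in MEKi+CD40 tumors, 9.11, 9.56, 10.84 and 8.78 in CD40 tumors, 10.03, 9.58, 8.46 and 9.91 in MEKi tumors and 9.64, 10.56, 8.85 and 10.58 in control tumors. Tagln, transgelin, an actin-binding protein of smooth muscle and myofibroblasts, was at 10.57, 6.99, 8.11 and 7.55 in MEKi+CD40 tumors, 7.62, 7.88, 8.55 and 7.30 in CD40 tumors, 8.64, 7.50, 6.40 and 8.03 in MEKi tumors and 8.02, 8.90, 7.16 and 8.63 in control tumors. MEKi tumor 3 had the lowest Tagln of all 16 tumors and an Acta2 level below all control tumors, while its Col1a1 was at 12.20. Together with Col4a1, Col4a2, Pdgfrb and Fbln5 they were the 6 genes of the 40 that lay below the control mean in this tumor.

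**Figure D3:**
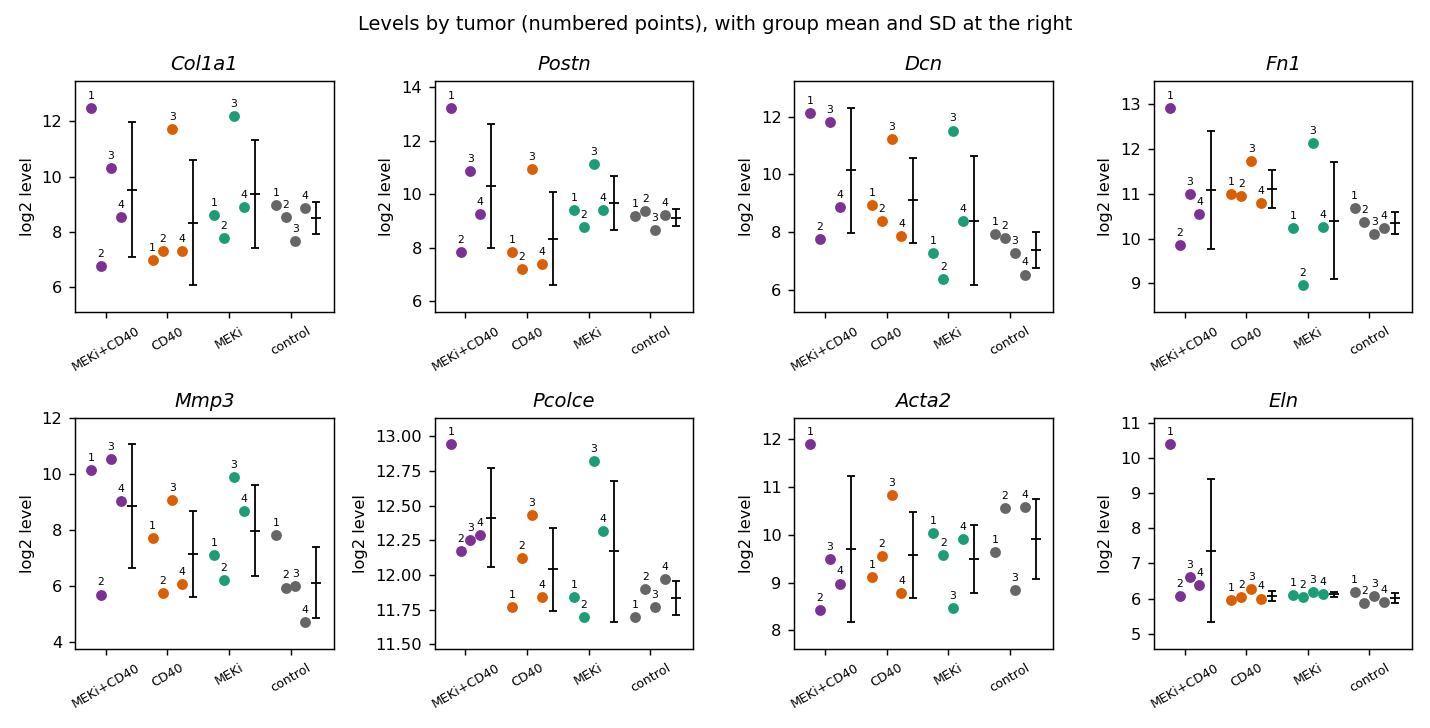
Log2 levels of 8 genes in each tumor (points, numbered by tumor within its group), with group mean and SD (n = 4) at the right of each group. Tumor 3 of the CD40 and MEKi groups and tumors 1 and 3 of MEKi+CD40 lie above their neighbours for Col1a1, Postn and Dcn, Eln is high in MEKi+CD40 tumor 1 alone, and Acta2 is low in MEKi tumor 3.

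MEKi+CD40 tumors were compared with control tumors for the effect of the combination. The means of 37 of the 40 genes were higher in MEKi+CD40 tumors and those of 3 lower, with a median difference of 1.02 beside 0.03 for all genes. The proteoglycan role had a median difference of 2.22, the fibrillar collagens 1.02 and the contractile genes -0.04. None of the 40 passed an adjusted p of 0.05 (limma, Benjamini-Hochberg over all probe sets), while 0.0055% of all genes did, and 8 were higher at an unadjusted p under 0.05 (10.9% of all genes were). These 8 were Pcolce with a difference of 0.58 (SE 0.17, adjusted p = 0.097), Sparc with 0.90 (SE 0.28, adjusted p = 0.12) and Dcn with 2.77 (SE 0.95, adjusted p = 0.14). They were followed by Mmp2 with 1.80 (SE 0.68, adjusted p = 0.17), Lum with 1.68 (SE 0.65, adjusted p = 0.18), Mmp3 with 2.73 (SE 1.07, adjusted p = 0.19), Mmp14 with 0.33 (SE 0.14, adjusted p = 0.20) and Ogn with 2.77 (SE 1.14, adjusted p = 0.21). The count of 8 was 2 without MEKi+CD40 tumor 3, 5 without control tumor 1, 3 without control tumor 3, 2 without control tumor 4 and 21 without MEKi+CD40 tumor 2. The matching shares of all genes were not computed, so these counts only show how the 8 depend on single tumors. Pcolce was the 1 gene of the 40 without overlap between the groups, beside 6.93% of all genes on the higher side. Without MEKi+CD40 tumor 2, which had the lowest level of its group in all 8 of these genes, 5 genes passed (1.72% of all genes did on the higher side): Sparc with 1.15, Dcn with 3.56, Lum with 2.25, Mmp3 with 3.79 and Mmp14 with 0.46. Leaving out the lowest tumor raises the group mean of these genes, so this is a description only. With array weights Pcolce passed (0.46, adjusted p = 0.047), beside 3.16% of all genes, and the median difference of the 40 was 0.48. Without MEKi+CD40 tumors 1 and 3 the median difference was -0.17, with 14 genes higher and 26 lower. Those tumors were recognised by their height in these same genes. A lower median therefore follows from leaving them out, and these values are a description only.

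CD40 tumors were compared with control tumors for the effect of the antibody alone. The median difference was 0.17 (27 genes with a higher mean, 12 lower and 1 equal), beside -0.03 for all genes. No gene passed the adjusted threshold in limma, as was the case for 0% of all genes, and 2 were higher at an unadjusted p under 0.05 (4.04% of all genes): Fn1 with 0.77 (SE 0.21, adjusted p = 0.50) and Dcn with 1.72 (SE 0.65, adjusted p = 0.56). The count of 2 was 4 without CD40 tumor 4 and 1 without control tumor 3 or control tumor 4. No share of all genes was computed for these leave-outs. Fn1 and Dpt did not overlap between the groups, beside 1.7% of all genes on the higher side, and Dpt differed by 1.65 (SE 0.78, adjusted p = 0.60). For Dpt the separation lay below the background level of 4.94, with CD40 tumor 2 at 4.88 and the 4 control tumors at 4.79 or less, so that neither its lack of overlap nor its difference is measured above background on the control side. The next of the 8 genes of smallest p were Sparc with 0.49 (SE 0.28), Timp1 with 0.51 (SE 0.32), Pdgfra with 0.91 (SE 0.62), Bgn with 0.59 (SE 0.41) and Pcolce with 0.20 (SE 0.14), all with adjusted p of 0.66 or more. The comparison turned on CD40 tumor 3. With array weights the median was -0.02 (19 higher, 21 lower). Without this tumor the median difference was -0.23, with 11 genes higher and 29 lower, and 10 genes were lower at an unadjusted p under 0.05 (4.44% of all genes) and 3 higher (3.4%). CD40 tumor 3 was recognised by its height in these same genes, so leaving it out lowers the group mean and spread of most. The counts, SEs and p values without it are therefore a description only. The 10 were the collagens Col1a1, Col1a2, Col3a1 and Col5a2, the crosslinking enzymes Lox and Loxl1, and Postn, Mfap5, Tnc and Fap, a group named after its values were seen. Postn then differed by -1.64 (SE 0.20, adjusted p = 0.12), Col1a1 by -1.30 (SE 0.28, adjusted p = 0.44) and Col3a1 by -1.08 (SE 0.22, adjusted p = 0.42). The 3 higher genes were Fn1 with 0.56 (SE 0.14, adjusted p = 0.56), Dpt with 0.71 (SE 0.21, adjusted p = 0.65) and Dcn with 1.01 (SE 0.35, adjusted p = 0.70). None of the 40 passed the adjusted threshold without this tumor either.

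MEKi tumors were compared with control tumors for the effect of the inhibitor alone, with the same control tumors as the 2 comparisons above. The median difference was 0.42, with 36 genes higher and 4 lower, beside 0.01 for all genes. No gene passed the adjusted threshold in limma (0% of all genes did), none passed an unadjusted p of 0.05 (7.9% of all genes in either direction), and none was without overlap (4.6%). The 8 genes of smallest p were Mmp3 with 1.85 (SE 0.83, adjusted p = 0.72), Sparc with 0.70 (SE 0.35), Ogn with 1.37 (SE 0.72), Fap with 0.56 (SE 0.33), Pcolce with 0.34 (SE 0.22), Col14a1 with 0.94 (SE 0.67), Postn with 0.56 (SE 0.43) and Lox with 1.25 (SE 0.97). Adjusted p values of these were between 0.72 and 0.83. Without MEKi tumor 3 the median difference was -0.001, with 20 genes higher and 20 lower. That tumor was recognised by its height in these same genes, so the lower median is a description only.

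The combination was set against each single treatment and the interaction was fitted, with MEKi+CD40, CD40, MEKi and control tumors shared between the comparisons. Against CD40 tumors, MEKi+CD40 tumors had a median difference of 0.79 (37 genes higher, 3 lower), beside 0.04 for all genes. None of the 40 passed the adjusted threshold in limma while 6.44% of all genes did, 1 was higher at an unadjusted p under 0.05 (13.6% of all genes), and none was without overlap (17.8%). That gene was Lum, with a difference of 1.72 (SE 0.70, adjusted p = 0.20). Mmp14 differed by 0.35 (SE 0.17), Pcolce by 0.37 (SE 0.21), Mmp2 by 1.47 (SE 0.84), Ogn by 2.16 (SE 1.25), Postn by 1.97 (SE 1.23), Mmp3 by 1.71 (SE 1.14) and Eln by 1.30 (SE 0.87). When 1 tumor was left out, between 0 and 6 genes were higher at an unadjusted p under 0.05, 6 being without MEKi+CD40 tumor 2 or CD40 tumor 3. Shares of all genes under these leave-outs were not computed. Without MEKi+CD40 tumors 1 and 3 and CD40 tumor 3 the median was 0.12, with 24 genes higher and 16 lower. The tumors left out were recognised by their height in these genes, so this median is a description only.

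Against MEKi tumors, MEKi+CD40 tumors had a median difference of 0.62 (37 genes higher, 3 lower), beside 0.005 for all genes. None of the 40 passed the adjusted threshold in limma (1.55% of all genes did) or an unadjusted p of 0.05 (24.6% in either direction), and none was without overlap (16%). The 8 genes of smallest p were Mmp14 with 0.28 (SE 0.15, adjusted p = 0.36), Serpinh1 with -0.24 (SE 0.14), Mmp2 with 1.38 (SE 0.93), Bgn with 1.14 (SE 0.77), Eln with 1.25 (SE 0.86), Lum with 1.34 (SE 0.93), Dcn with 1.75 (SE 1.32) and Mfap5 with 1.34 (SE 1.11). The median turned to -0.59, with 6 genes higher and 34 lower, without MEKi+CD40 tumors 1 and 3, and to -0.17 (18 higher, 22 lower) when MEKi tumor 3 was left out too. With MEKi tumor 2 left out in its place it was -0.93 (4 higher, 36 lower), and with array weights over all 8 tumors it was 0.17. MEKi+CD40 tumors 1 and 3 and MEKi tumor 3 were recognised by their height in these genes. The medians without them are a description only. In the interaction, which asks whether the antibody shifts a gene differently with the inhibitor than without it, the median was 0.25 (33 genes positive, 7 negative), beside 0.03 for all genes. None of the 40 passed the adjusted threshold in limma (0% of all genes) or an unadjusted p of 0.05 (17.6%). Mmp14 had the smallest p, with 0.30 (SE 0.21, adjusted p = 0.59), followed by Eln with 1.19 (SE 0.93), Lum with 1.39 (SE 1.10), Serpinh1 with -0.20 (SE 0.17), Tagln with 1.00 (SE 0.94), Postn with 1.41 (SE 1.40), Mfap5 with 1.37 (SE 1.48) and Mmp2 with 1.04 (SE 1.13). Its median was -0.31 without MEKi+CD40 tumors 1 and 3 and CD40 tumor 3, 0.11 without MEKi tumor 3 as well, and -0.61 with MEKi tumor 2 left out in its place. For the same reason these medians are a description only.

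**Figure D4:**
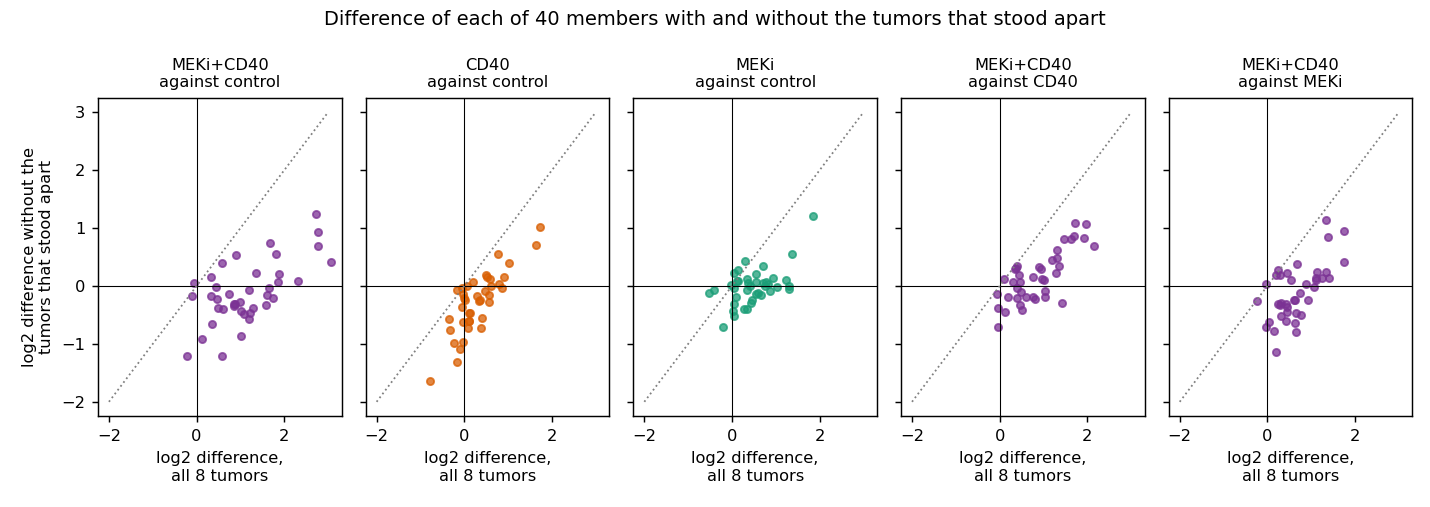
Log2 difference of each of the 40 genes (points) in 5 comparisons, with all 8 tumors (horizontal axis) and without the tumors that stood apart (vertical axis), and the dotted line marks equality. Most points lie below the line, and the medians on the vertical axis are -0.17, -0.23, -0.001, 0.12 and -0.17, in panel order. The tumors left out were recognised by their height in these genes. In the panels against control, points below the line therefore follow from that choice.

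Other matrix genes, in 5 lists that hold none of the 40, gave 1 call over the 6 comparisons. That call was Sdc2, syndecan 2, a cell surface heparan sulfate proteoglycan, which rose in MEKi+CD40 tumors against CD40 tumors by 0.54 (SE 0.11, adjusted p = 0.036, limma), in a comparison where 6.44% of all genes passed. Sdc2 was at 9.72, 9.80, 9.91 and 9.75 in MEKi+CD40 tumors, against 9.44, 8.99, 9.26 and 9.33 in CD40 tumors, without overlap, as were 17.8% of all genes, and with no tumor standing apart. Leaving out 1 tumor kept the difference between 0.45 and 0.60, but the adjusted p passed the threshold only without MEKi+CD40 tumor 1 (0.031) and reached 0.11 without CD40 tumor 2. Without MEKi+CD40 tumors 1 and 3 and CD40 tumor 3 the difference was 0.52 (SE 0.15, adjusted p = 0.11). It was 1 of 30 genes of fibroblast identity and matrix glycoproteins, of which no other passed. Against control tumors the same gene differed by 0.44 (SE 0.08, adjusted p = 0.052). Timp3, an inhibitor of metalloproteinases that stays bound to the matrix, had differences in MEKi+CD40 tumors of 1.80 against control (SE 0.29, adjusted p = 0.052), 1.23 against CD40 (SE 0.31, adjusted p = 0.062) and 1.54 against MEKi tumors (SE 0.29, adjusted p = 0.050), the last just above the threshold. Lamb2, a laminin chain of basement membranes, differed by 0.92 against control (SE 0.21, adjusted p = 0.059) and 0.88 against CD40 tumors (SE 0.22, adjusted p = 0.058). None of the 10 other collagens, 11 collagen-modifying genes, 10 basement membrane genes and 17 proteases and inhibitors passed in any comparison.

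Mmp13, collagenase 3, had differences of opposite sign in the single treatments. Its difference was 1.78 in CD40 tumors against control (SE 0.40, adjusted p = 0.45) and -1.67 in MEKi tumors against control (SE 0.40, adjusted p = 0.57). Tgfbi, a matrix protein induced by TGF-beta, gave 1.79 (SE 0.50, adjusted p = 0.51) and -1.88 (SE 0.80, adjusted p = 0.71) in the same comparisons. Neither passed the threshold, and the difference between the 2 treatments was not tested for them. Against CD40 tumors, MEKi+CD40 tumors had an Mmp13 difference of -2.04 (SE 0.54, adjusted p = 0.070). Mmp12, the macrophage elastase, was at -1.99 in MEKi tumors against control (SE 0.49, adjusted p = 0.57). In MEKi+CD40 tumors against MEKi tumors it was at 2.29 (SE 0.64, adjusted p = 0.092, limma). The macrophage markers averaged 8.52 ± 1.46 in MEKi+CD40 tumors, 9.30 ± 1.00 in CD40 tumors, 6.50 ± 1.09 in MEKi tumors and 7.87 ± 0.96 in control tumors (SD, n = 4 each). Their part in these values was not tested.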

How the data were processed

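Transcripts were measured in 16 tumors with 1 Affymetrix mouse array each. Per the labels and methods, the 3′ IVT Plus kit was used on 200 ng of total RNA, and after quality control the deposited log2 values were computed by the authors in Chipster with robust multichip averaging (RMA). These log2 values entered the tests as deposited, with column medians between 5.67 and 5.75. Arrays give no read depth, so the number of arrays limits the precision. No RMA version is given in the sources used here.

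Groups came from the sample labels. Of 45101 probe sets, 64 Affymetrix controls were left out and 45037 tested. In the platform annotation 34945 have 1 symbol, 932 several and 9160 none. A gene was taken as the probe set of highest mean among those with its symbol alone. The background level, 4.94, is the 95th percentile of 44 olfactory receptor probe sets. Linear models (limma 3.58.1, R 4.3.3, lmFit then eBayes) used the 8 arrays of the 2 groups compared, or all 16 for the interaction, and p values were adjusted by Benjamini-Hochberg over 45037 probe sets and called under 0.05. The fit was tested on simulated data, drawn with the spread of the control tumors in every group. Spread that differs between groups was not covered by it. Tables and figures used Python 3.11.15, pandas 2.3.3 and matplotlib 3.10.9.

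The genes and lists were chosen with earlier results of these data known. Levels by tumor were given for 21 genes set by name, differences for the 8 genes of smallest p per comparison, and up to 2 genes per other list. Levels by tumor were also given for Pcolce, which was not among the genes set by name. The alternatives were 1 fit of all arrays, a replicate block, filters, other probe set choices, cyclic loess, median centring, array weights, trend with robust eBayes, and leaving out each tumor or the 3 tumors with most muscle transcripts (MEKi+CD40 1 and 3, CD40 3). Leaving out MEKi tumor 2 or 3 with these, and the leave-out values of Sdc2, were chosen after seeing the data. No 2 groups had all of their same-numbered tumors correlated above 0.1 in their deviations (7 of 24 such pairs were), so the numbers were not taken as pairs.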

Additional observations from a re-analysis of the deposited data

Results flagged for a closer look

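Of 160 sets of 4 tumors (40 genes in 4 groups), 21 had 1 tumor far from the other 3 by Dixon's criterion, which chance alone meets in about 1 in 20 single sets. The genes vary together across the same tumors, so the sets are not independent and the count is a description only. CD40 tumor 3 was the tumor set apart in 14 of the 21 sets, always as the highest. For the collagens it was at 11.73 for Col1a1 (the other CD40 tumors at 7.31 or less), 13.73 for Col1a2, 13.47 for Col3a1, 9.64 for Col5a1, 11.04 for Col4a1 and 10.45 for Col6a1. For the crosslinking enzymes it was at 10.64 for Lox and 9.07 for Loxl1, and for other matrix proteins at 8.75 for Vcan, 9.67 for Fbln2, 9.49 for Mfap5 and 10.93 for Postn. Mmp2 was at 9.62 and Pdgfra at 9.17 in the same tumor.

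MEKi tumor 3 was set apart as the highest for Col14a1 at 9.41, Dpt at 9.71 and Cthrc1 at 9.53, with the next MEKi tumor at 6.27, 4.73 and 4.38. MEKi+CD40 tumor 1 was set apart as the highest for Pcolce at 12.94, Eln at 10.40 and Cthrc1 at 10.63, with the next tumor of its group at 12.29, 6.60 and 4.95. Control tumor 3 was set apart as the lowest for Vcan, at 4.98, with the next control tumor at 5.84. No gene of the 40 had an interaction under the adjusted threshold, and none moved one way in every tumor of 1 setting and the opposite way in every tumor of the other.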

How the results depend on the processing

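The count of genes called was 0 in all 6 comparisons under the alternatives run, apart from MEKi+CD40 against control, where it was 1 with array weights and between 0 and 5 when 1 tumor was left out, 5 being without MEKi+CD40 tumor 2. Median differences changed with single tumors and with array weights, which gave 0.48, -0.02, 0.28, 0.42, 0.17 and 0.12 in the order that follows. When 1 tumor was left out, the median ran between 0.24 and 1.73 in MEKi+CD40 against control, between -0.23 and 0.48 in CD40 against control, between -0.001 and 0.73 in MEKi against control, between 0.10 and 1.43 in MEKi+CD40 against CD40, between -0.08 and 1.22 in MEKi+CD40 against MEKi, and between -0.45 and 0.87 in the interaction. The lowest value came without CD40 tumor 3 in CD40 against control, without MEKi tumor 3 in MEKi against control, and without MEKi+CD40 tumor 1 in the other 4. Without MEKi+CD40 tumors 1 and 3, 3 named genes changed sign in MEKi+CD40 against MEKi: Bgn to -0.117, Dcn to -0.088 and Mfap5 to -0.43. Without MEKi tumor 2 as well, the median was -0.93 in that comparison. MEKi+CD40 tumors 1 and 3 were recognised by their height in these genes, so these values are a description only. The cause was not tested. The count of genes higher at an unadjusted p under 0.05, 0 with all tumors, reached 3 without MEKi tumor 1 or 2 in MEKi against control, 3 without MEKi tumor 3 in MEKi+CD40 against MEKi, and 1 in the interaction. Shares of all genes were not computed for these leave-outs. With the replicate number as a block, the median difference of MEKi+CD40 against control was 1.02 and 0 genes were called, and the block changed no call in any comparison. Pairs of same-numbered tumors correlated between -0.52 and 0.47, with 7 of 24 over 0.1, and pairs of different numbers between -0.64 and 0.63. Of 912 values of named genes under an alternative, 903 kept their direction and side of the threshold, 6 passed it and 3 changed sign. The named genes are the 8 of smallest p per comparison, none called with all tumors, so this tally does not describe the 40. Without MEKi+CD40 tumors 1 and 3, the genes of the 40 with a higher mean went from 37 to 14 against control. Against MEKi tumors they went from 37 to 6. Signal limits the lowest genes: Cthrc1, Ogn and Dpt were below the background level in 12, 10 and 9 of 16 tumors.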
